A study of Mus musculus with 3 samples.

Results

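The 3234 hepatocytes described here came from the high-fat diet (HFD) and carbon tetrachloride (CCl4) libraries of a mouse liver single-cell series, 835 cells from the HFD library and 2399 from the CCl4 library. They were taken from the 25745 barcodes of these libraries and the 36990 barcodes of the whole series. A cell was chosen by measured values: 3% to 30% of its UMIs (unique molecular identifiers, 1 per captured RNA molecule) in mitochondrial genes, at least 20 UMIs in Alb, Apob and Cps1 together, and 0 UMIs in Ptprc, Cd3e, Cd79a, Ptprb, Krt19 and Col3a1. The question was which genes separated hepatocytes of a liver exposed to a toxin from those of a liver loaded with dietary fat, without the untreated library and its acute-phase state.

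All animals were wild-type male C57BL/6 mice that entered at 8 weeks of age. The HFD mice received a diet with 60% of its energy as fat for 4 months as a model of metabolic dysfunction-associated steatohepatitis. The CCl4 mice ate chow for 3 months and were then injected intraperitoneally with a 10% CCl4 solution, 0.1 mL at a time and 2 times a week, for 4 weeks as a model of hepatic fibrosis. The cells of 2 mice were pooled in each library after collagenase perfusion, and hepatocytes and nonparenchymal cells were mixed in equal numbers before loading. With 1 library a side, no difference could be tested across samples, and diet, toxin, mice, dissection and library cannot be told apart. Intervals below are exact 95% intervals that cover counting error only.

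Hepatocytes work by position. Blood enters a lobule at the portal tract and leaves at the central vein, and cells along this path divide the labour: periportal hepatocytes make glucose and urea and break down amino acids, whereas pericentral hepatocytes make glutamine, bile acids and most cytochrome P450 enzymes under Wnt signalling. CCl4 is turned into a reactive radical by P450 enzymes, chiefly CYP2E1, and its injury is classically centred on the pericentral zone. A high-fat diet loads hepatocytes with fatty acids, ligands of the nuclear receptor PPAR alpha, which drives genes of fatty acid oxidation.

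The members of both libraries carried hepatocyte RNA at close depths. They held a median of 3576 UMIs and 1478 genes in the HFD library and 3098 UMIs and 1280 genes in the CCl4 library, and 3216659 and 8847843 UMIs in all. Mitochondrial genes took a median of 5.03% and 5.43% of the UMIs. Of the genes that chose the cells, Alb stood at 40139.8 CPM (the UMIs of a gene summed over the cells and scaled to a total of 1000000) in the HFD library and 66534 CPM in the CCl4 library, Apob at 1754 and 2399.9 CPM, and Cps1 at 2817 and 5619 CPM. These levels describe the choice and are no result. No hepatocyte barcode was shared between the libraries, although 52 sequences occurred in both among all barcodes. Xist had 0 UMIs in the hepatocytes of either library, and the Y-linked gene Ddx3y had 301 and 736.

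The label held unevenly. The minimum of 20 UMIs in Alb, Apob and Cps1 was reached by 99.9% of all HFD and 100% of all CCl4 barcodes. It left out 11 and 0 barcodes, so it did little to choose the cells. Barcodes with at least 2 UMIs in T and B cell receptor genes, called lymphocyte barcodes here, should lack hepatocyte RNA, yet Alb, Apob and Cps1 together made up a median of 1.90% of their UMIs in the HFD library (1705 barcodes) and 3.79% in the CCl4 library (1237 barcodes). The 95th percentile of that share was 2.97% and 5.50%. Of the HFD hepatocytes, 521 of 835 (62.4%) lay above it, as did 1978 of 2399 (82.5%) of the CCl4 hepatocytes. The plot of marker shares shows a second, lower group among the HFD cells, which the zone results below describe. The level in lymphocyte barcodes is given beside several results below.

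Just below the lower mitochondrial limit, 210 HFD and 687 CCl4 barcodes that otherwise met the rule had 2% to 3% mitochondrial UMIs, with a median marker share of 2.77% and 6.23%. Just above it, 201 and 564 cells had 3% to 4%, with a median marker share of 4.38% and 7.01%.

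Among 2729 genes with at least 50 CPM in either library, 82 were at least 2-fold higher in CCl4 hepatocytes, which is 3.00% of the genes, and 134 were at least 2-fold lower, which is 4.91%. The other 2513 genes lay within 2-fold, and the median log2 ratio of CCl4 over HFD was -0.04. The tail was longer on the lower side: 47 genes were at least 4-fold lower against 15 at least 4-fold higher, and 19 were at least 10-fold lower against 3. Counting error left 62 of the 82 and 107 of the 134 with their whole interval past 2-fold. Near the threshold, 47 genes had a ratio of 1.8 to 2 and 22 a ratio of 2 to 2.2, while 38 and 20 genes were lower by those factors. All 82 and all 134 kept their direction among droplets under 3% mitochondrial UMIs that otherwise met the rule (7088 HFD and 6870 CCl4). There 77 and 106 of them were past 2-fold as well. These droplets had a median marker share of 2.22% and 4.37%, near the 1.90% and 3.79% of lymphocyte barcodes. Their RNA may be largely free RNA, so this is no separate check on the hepatocytes.

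**Figure D1:**
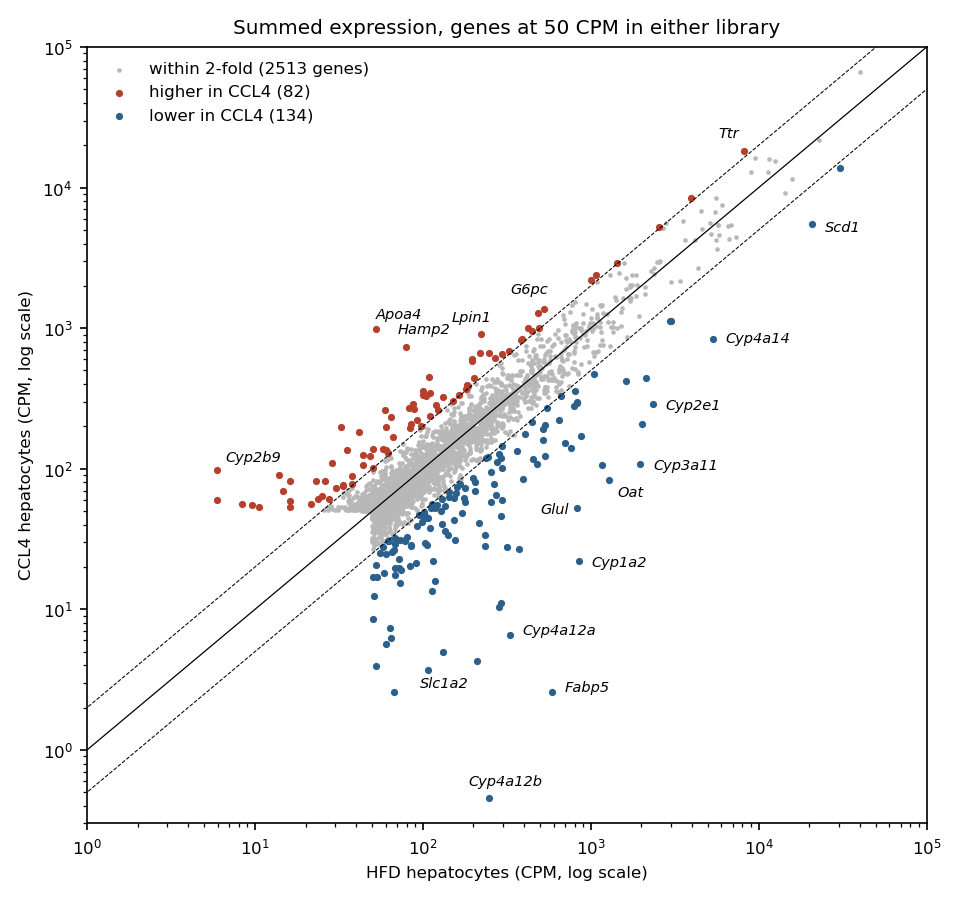
Summed expression of 2729 genes in HFD hepatocytes (x axis, CPM, log scale) and CCl4 hepatocytes (y axis, CPM, log scale), 1 point a gene; the solid line marks equal levels and the dashed lines 2-fold. The 82 red genes lie above the upper dashed line and the 134 blue genes below the lower one, with Cyp4a12b farthest below, then Fabp5.

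The largest excess in CCl4 hepatocytes belonged to Apoa4, an apolipoprotein of triglyceride-rich particles, on chromosome 9 (46240696 to 46243459, GRCm38). Apoa4 stood at 52.5 CPM (44.9 to 61.1) in the HFD library and at 982 CPM (962 to 1003) in the CCl4 library, 18.7-fold higher (16.1 to 21.9). An Apoa4 UMI was seen in 15.4% of HFD hepatocytes and 86.1% of CCl4 hepatocytes, and in 5.40% and 72.5% of the lymphocyte barcodes. Hepatocytes thus differed in the same direction as the lymphocyte barcodes. In the control library, measured the same way and given for reference only, Apoa4 was at 1458 CPM.

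Cyp2b9, a steroid- and drug-metabolizing P450 with female bias in mouse liver, followed with 5.91 CPM (3.56 to 9.22) in HFD and 97.7 CPM (91.2 to 104) in CCl4 hepatocytes, 16.5-fold higher (10.5 to 27.6), from 19 and 864 UMIs. Hamp2, a hepcidin-like peptide gene, went from 79.6 to 739 CPM, 9.29-fold higher (8.19 to 10.6), and its control level was 1.85 CPM. The hepcidin gene itself, Hamp, which limits iron release into blood, stood at 2674 and 5173 CPM, 1.93-fold higher (1.89 to 1.98). Lymphocyte barcodes held 70.3 and 703 CPM of Hamp2 and 2587 and 4767 CPM of Hamp, close to the hepatocytes, and a Hamp2 UMI was seen in 77.8% of the CCl4 lymphocyte barcodes against 69.7% of the CCl4 hepatocytes. Hamp and Hamp2 share sequence, so reads of one may be counted for the other.

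Mfsd2a, a lysophospholipid transporter, was at 32.6 and 197 CPM, 6.03-fold higher in CCl4 hepatocytes. Lpin1, which makes diacylglycerol and assists PPAR alpha, was at 221 and 907 CPM, 4.10-fold higher (3.80 to 4.44). Chka, the choline kinase that opens the main route to phosphatidylcholine, was at 59.4 and 262 CPM, and the Notch target Hes1 at 35.1 and 136 CPM. Fkbp5, a textbook glucocorticoid-induced gene, stood at 8.39 and 56.5 CPM, 6.73-fold higher (4.57 to 10.3). The remaining genes among the 14 highest were Gm43305, Tcim, Hectd2os, Ccdc152, Defb1 and Abhd2, with ratios of 3.63 for Abhd2 to 10.2 for Gm43305. Hectd2os is an antisense gene, and its reads could not be told from those of its partner here. In the CCl4 library Gm43305 reached 60.0 CPM and Ccdc152 447 CPM.

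At the other end stood Cyp4a12b, a fatty acid omega-hydroxylase with male bias, on chromosome 4 (115411624 to 115439034, GRCm38). It had 801 UMIs in HFD and 4 in CCl4 hepatocytes, 249 CPM (232 to 267) against 0.452 CPM (0.123 to 1.16), 551-fold lower (214 to 2027). Its close copy Cyp4a12a had 329 and 6.56 CPM, 50.2-fold lower (38.5 to 66.6). Reads of such near-identical copies can be split or dropped in counting, so the pair is best read together. Cyp2a5, which hydroxylates coumarin and nicotine, was at 209 and 4.29 CPM, 48.7-fold lower (35.1 to 69.5), and Cyp1a2, the caffeine-metabolizing P450, at 846 and 22.0 CPM, 38.4-fold lower (33.2 to 44.6).

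Slc1a2, a glutamate transporter of cells at the central vein, stood at 108 CPM in HFD and 3.73 CPM in CCl4 hepatocytes, 28.9-fold lower (20.2 to 42.7). The other genes among the 14 lowest were Mup11, Mup17, Slco1a1, Pltp, Cyp3a11, Oat, Glul, Cyp2c54 and Cyp2c29, each at least 10-fold lower, up to 27.1-fold for Mup11. Most of the 14 were P450 genes or pericentral landmarks, which are described next.

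**Figure D2:**
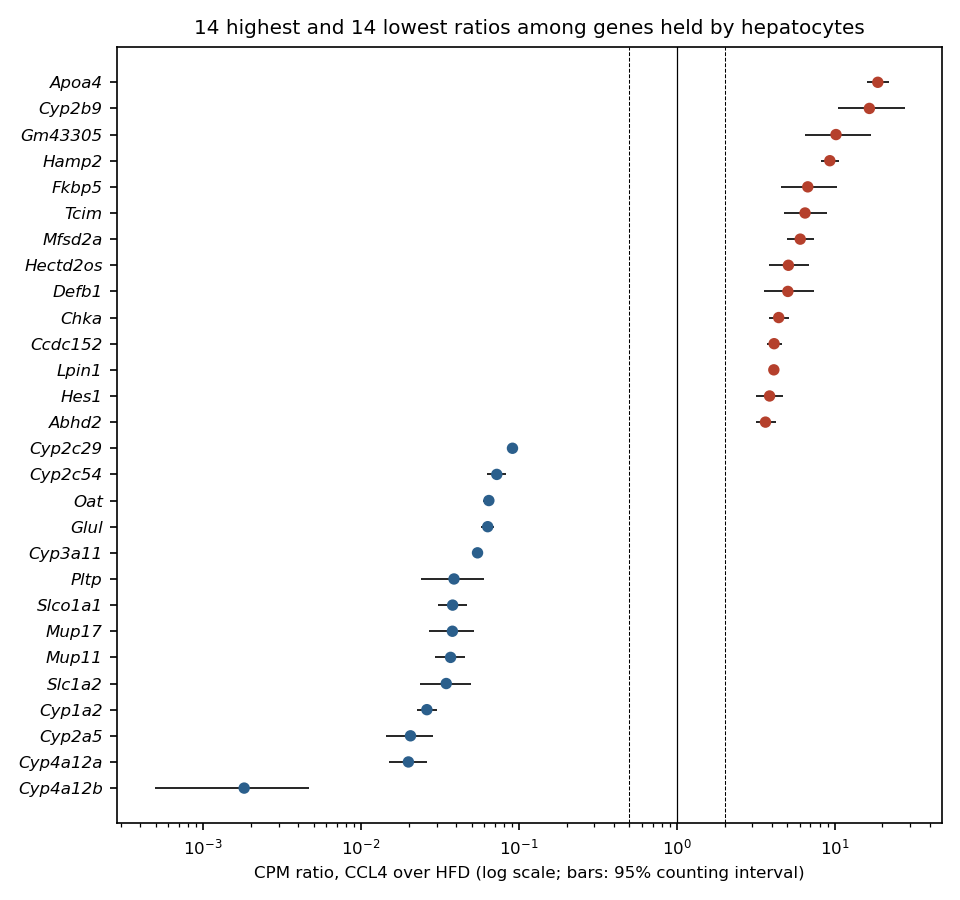
CPM ratio of CCl4 over HFD hepatocytes (x axis, log scale) for the 14 highest (red) and 14 lowest (blue) genes held by hepatocytes, ranked by the interval bound nearest 1; bars are 95% counting intervals and dashed lines mark 2-fold. The red genes run from 3.63 to 18.7 and every blue gene lies below 0.1.

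Pericentral landmarks differed most as a group. Of 26 listed genes, 18 reached 50 CPM in either library. Of these, 15 were at least 2-fold lower in CCl4 hepatocytes (83.3%, against 4.91% of all genes). Higher was 1 (5.56%, against 3.00%), and 2 lay within 2-fold. Their median log2 ratio was -2.25, against -0.04 for all genes. Glul, glutamine synthetase and the classical mark of the cells nearest the central vein, stood at 832 CPM (801 to 864) in HFD and 52.7 CPM (48.0 to 57.7) in CCl4 hepatocytes, 15.8-fold lower (14.3 to 17.5). Oat, which turns ornithine toward glutamate in the same cells, was at 1291 and 83.1 CPM, 15.5-fold lower. Cyp2e1, the enzyme that activates CCl4 (chromosome 7, 140763739 to 140774987, GRCm38), was at 2342 and 290.4 CPM, 8.07-fold lower (7.71 to 8.44). Rgn, Gulo, Ang and Rnase4 were 2.82-fold to 4.92-fold lower; Ang and Rnase4 overlap and may share reads. Prodh lay within counting error, 1.05-fold lower (0.881 to 1.25), and Aldh1b1, which the list shares with the periportal landmarks, was 3.28-fold higher. The Wnt target Axin2 and its co-receptor Lgr5 stayed under 50 CPM, with 16 and 34 UMIs in the HFD cells and 9 and 1 in the CCl4 cells.

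**Figure D3:**
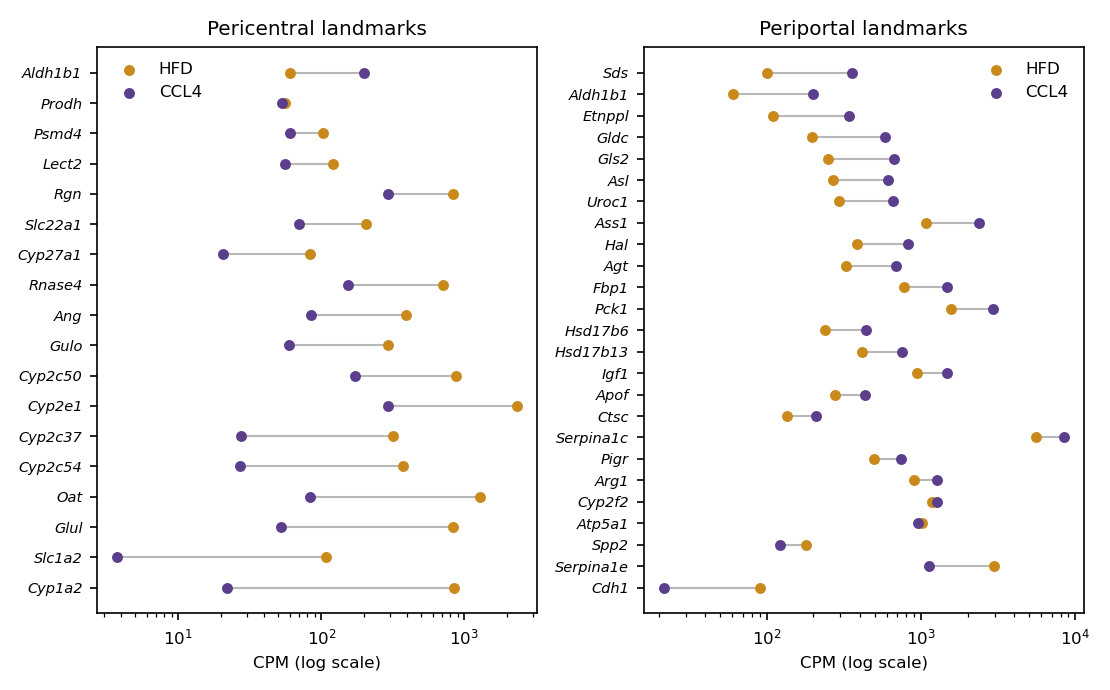
Summed CPM (x axis, log scale) of pericentral (left) and periportal (right) landmark genes at 50 CPM in either library, in HFD (gold) and CCl4 (violet) hepatocytes; a grey line joins the values of a gene. The violet points lie left of the gold points for 17 of 18 pericentral genes and right of them for 21 of 25 periportal genes.

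The same landmarks were also counted cell by cell. Their levels make this count, so fewer pericentral cells and lower landmark levels in each cell cannot be told apart by it. A hepatocyte with more UMIs in pericentral than in periportal landmarks, Aldh1b1 left out of both, was found 279 times among 835 HFD cells (33.4%, 30.2 to 36.7%) and 10 times among 2399 CCl4 cells (0.417%, 0.200 to 0.765%). For reference, the control library held 118 of 1161 (10.2%). The HFD cells spread over the whole range, with a pericentral share of landmark UMIs of 4.75% at the 10th and 77.2% at the 90th percentile, whereas these percentiles were 0% and 13.7% in the CCl4 cells. Few cells lay within 5 percentage points of an even split, 46 in the HFD and 10 in the CCl4 library. The mixing of hepatocytes with other cells and the loss of cells in dissection and filtering stand between these shares and the tissue; their part was not tested.

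**Figure D4:**
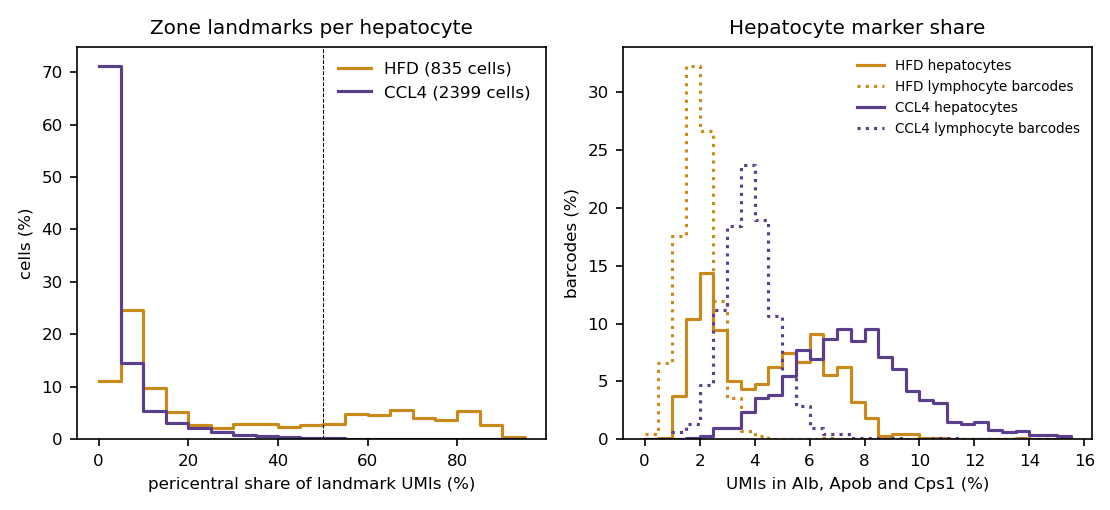
Left, share of landmark UMIs that were pericentral (x axis, %) in HFD (gold, 835 cells) and CCl4 (violet, 2399 cells) hepatocytes, as the percentage of cells a bin (y axis), with a dashed line at an even split; 279 HFD and 10 CCl4 cells lie above it. Right, share of a barcode's UMIs in Alb, Apob and Cps1 (x axis, %) in hepatocytes (solid) and lymphocyte barcodes (dotted), where the HFD hepatocytes form a low group that overlaps the HFD lymphocyte barcodes.

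The 279 pericentral-leaning HFD cells were as deep as the 556 others, with a median of 3513 against 3598 UMIs. Their marker share was 2.11% against 5.55%, and only 21 of them exceeded the 95th percentile of the lymphocyte barcodes against 500 of the others. Alb, Apob and Cps1, which make this share, stood at 19091, 1374 and 1300 CPM in them and at 50006, 1931 and 3528 CPM in the others. The share thus differed with the zone, and the part of free RNA in it was not tested. Glul stood at 2338 CPM in the pericentral-leaning HFD cells and Oat at 3571 CPM, against 147 and 499 CPM in HFD lymphocyte barcodes. Glul, Oat, Cyp2e1 and Cyp1a2 are among the landmarks that split the cells, so their levels on either side describe the split. In the 556 other HFD cells Glul stood at 126 CPM and Oat at 222 CPM, below those of the lymphocyte barcodes. The source of this RNA was not tested. Cyp2e1 behaved alike, with 5577 CPM, 826 CPM and, in lymphocyte barcodes, 1534 CPM. Cyp1a2 kept 239.7 CPM in the other HFD cells against 204 CPM in lymphocyte barcodes, and Cyp3a11 1110.0 against 1010.4 CPM. Over all 2729 genes, cells that did not lean pericentral gave 66 genes at least 2-fold higher and 117 at least 2-fold lower in the CCl4 library. Of the 18 pericentral landmarks 10 were at least 2-fold lower in these cells, with a median log2 ratio of -1.33. The landmarks made this split, so the smaller difference is in part set by it. Rgn and Gulo were then 1.32-fold and 1.28-fold lower, whereas Lect2 and Prodh turned to ratios of 1.35 and 1.40.

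Glul was concentrated in few cells of either library. The tenth of HFD cells with most Glul UMIs held 81.2% of them, with up to 90 in 1 cell, and 10.8% of HFD cells had at least 5 against 0.125% of CCl4 cells and 0.117% of HFD lymphocyte barcodes. A single CCl4 cell still reached 103 Glul UMIs. Thinned to 1000 UMIs a cell, which left out 0 hepatocytes, a Glul UMI was expected in 24.5% of HFD and 3.12% of CCl4 hepatocytes. In the lymphocyte barcodes it was expected in 14.1% and 3.37%, so the CCl4 hepatocytes were no higher than these. In the 10 pericentral-leaning CCl4 cells the ratio of Glul over the HFD cells of that class was 2.38 and that of Oat 2.85, a description of 10 cells chosen by these genes.

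Wnt signalling acts through TCF/LEF factors, so the promoter windows of the members were searched for their core letters, CTTTGAT, on both strands (RefSeq, GRCm38.p6, 250 bases before to 50 after a start). The letters occurred in 4.29% of 27025 genes with a window and in 3 of 14 pericentral landmarks at 50 CPM, namely Lect2, Psmd4 and Slc1a2. Cyp2c29, a P450 with a ratio of 0.0908 in CCl4 over HFD cells, was the 1 of 23 P450 genes with a window that held them, 4.35% and thus close to the share of all genes. The windows of Slc1a2 (chr2:102706188-102706487, plus strand) and Cyp2c29 (chr19:39286835-39287134, plus strand) are shown because these genes were among the 14 lowest, with the matched letters, which lie on the opposite strand, in capitals. A window was shown only if it held the letters. Both lie inside the annotated gene spans, which begin at 102658659 and 39269405, and so belong to internal starts. A match is a description of letters and not a bound site.
Slc1a2: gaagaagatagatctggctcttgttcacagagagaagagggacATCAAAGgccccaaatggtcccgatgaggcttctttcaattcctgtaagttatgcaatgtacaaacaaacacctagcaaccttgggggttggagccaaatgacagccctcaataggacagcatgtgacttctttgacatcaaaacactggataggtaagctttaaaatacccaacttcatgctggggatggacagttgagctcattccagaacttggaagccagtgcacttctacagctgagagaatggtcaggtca
Cyp2c29: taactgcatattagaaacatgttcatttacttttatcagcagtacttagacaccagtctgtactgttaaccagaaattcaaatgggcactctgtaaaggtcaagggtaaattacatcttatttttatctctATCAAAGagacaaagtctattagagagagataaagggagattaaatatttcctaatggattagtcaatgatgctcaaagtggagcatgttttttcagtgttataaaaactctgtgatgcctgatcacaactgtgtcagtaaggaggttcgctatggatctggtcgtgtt

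Periportal landmarks lay the other way. Of 25 genes at 50 CPM, 10 were at least 2-fold higher in CCl4 hepatocytes (40.0%, against 3.00% of all genes). Another 2 were lower (8%, against 4.91%) and 13 lay within 2-fold. The median log2 ratio was 0.88. Sds, serine dehydratase, was at 100.4 CPM (89.8 to 112) in HFD and 357 CPM (344 to 369) in CCl4 cells, 3.55-fold higher (3.17 to 4.00), although lymphocyte barcodes of the CCl4 library held 391 CPM. Gls2, the liver glutaminase, stood at 249 and 665 CPM, 2.68-fold higher. Etnppl, Gldc, Hal and Uroc1, which degrade phosphoethanolamine, glycine and histidine, were 2.14-fold to 3.11-fold higher. Cyp2f2, the usual periportal P450, was nearly level at 1179 and 1275 CPM. Cdh1, E-cadherin, went against the list with 90.5 and 21.5 CPM, 4.21-fold lower (3.50 to 5.08), and Serpina1e, 1 of several near-identical alpha-1 antitrypsin genes, was 2.67-fold lower while its relative Serpina1c was 1.50-fold higher.

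The periportal excess was smaller among cells that did not lean pericentral, a split made with these landmarks that narrows the difference by itself. In these 556 HFD and 2389 CCl4 cells, 5 of the 25 periportal landmarks were at least 2-fold higher, against 66 of all 2729 genes. The median log2 ratio was 0.47. Sds was then 2.55-fold and Gldc 2.19-fold higher and Gls2, Hal and Uroc1 were under 2-fold at 1.90, 1.53 and 1.72, whereas Cyp2f2 was lower in the CCl4 cells, with a ratio of 0.757 (0.729 to 0.786). Cdh1 was 6.08-fold lower among these cells.

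The urea cycle and nitrogen list had 4 of 14 genes higher (28.6%, against 3.00% of all genes) and 1 lower (7.14%, against 4.91%). Of the higher genes, Ass1, Asl and Gls2 are also periportal landmarks, and the lower gene is a pericentral one. These genes are counted here again. The median log2 ratio was 0.55. Ass1 and Asl, which build and split argininosuccinate, stood at 1075 and 269 CPM in HFD and 2387 and 613 CPM in CCl4 cells, 2.22-fold and 2.28-fold higher. The cytosolic transaminase Got1 was 2.37-fold higher and arginase Arg1 1.41-fold higher (896 and 1262 CPM). The gene past 2-fold on the lower side was Glul. Among cells that did not lean pericentral 1 of the 14, Got1, was at least 2-fold higher, against 66 of all 2729 genes. Ass1 was at 1.75-fold, Asl also under 2-fold, and the median log2 ratio was 0.43. Amino acid catabolism had 9 of 38 genes higher (23.7%, against 3.00% of all genes) and 1 lower (2.63%, against 4.91%), the glycine-forming enzyme Gcat. The median log2 ratio of this list was 0.40. The list shares Sds, Sdsl, Gldc, Hal and Uroc1 with the periportal landmarks and Prodh with the pericentral ones. Tdo2 and Tat, the glucocorticoid-responsive enzymes that open tryptophan and tyrosine breakdown, stood at 1430.1 and 1009 CPM in HFD and 2909 and 2202 CPM in CCl4 cells, 2.03-fold and 2.18-fold higher. Mat1a, which makes S-adenosylmethionine, was 1.83-fold higher (1308 and 2391 CPM). In cells that did not lean pericentral Tdo2 was 1.98-fold and Tat 1.91-fold higher, just under 2-fold. There 4 of the 38 genes were at least 2-fold higher, against 66 of all 2729 genes.

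Drug-metabolizing P450 enzymes, with their reductase and receptor, were lower in CCl4 hepatocytes for 12 of 27 genes (44.4%, against 4.91% of all genes). They were higher for 1, Cyp2b9 (3.00% of all genes were higher), and within 2-fold for 14. The median log2 ratio was -0.46. The list shares Cyp2e1, Cyp1a2, Cyp2c37, Cyp2c50 and Cyp2c54 with the pericentral landmarks and Cyp2f2 with the periportal ones. Cyp3a11, the main inducible drug-metabolizing P450 of mouse liver, stood at 1976 CPM (1928 to 2025) in HFD and 108 CPM (101 to 115) in CCl4 cells, 18.3-fold lower (17.1 to 19.6). Among cells that did not lean pericentral it was 11.1-fold lower (10.2 to 11.9). The HFD cells then held 1110 CPM of Cyp3a11, near the 1010 CPM of HFD lymphocyte barcodes, and its source was not tested. Members of the Cyp2c cluster, which share sequence, split: Cyp2c29, Cyp2c37, Cyp2c38, Cyp2c50, Cyp2c54 and Cyp2c67 were lower, with 1169.8 and 106 CPM for Cyp2c29, whereas Cyp2c23, Cyp2c68 and Cyp2c70 lay within 2-fold. These differences shrank among cells that did not lean pericentral, to 3.79-fold for Cyp2c29, 1.99-fold for Cyp2c37 and 1.21-fold for Cyp2c38 (0.704 to 1.99). Cyp2c29 was then at 373 CPM in the HFD cells, below the 511 CPM of HFD lymphocyte barcodes, and its source was not tested. Among cells that did not lean pericentral 9 of the 27 genes of the list were at least 2-fold lower, against 117 of all 2729 genes. Nr1i3, the receptor CAR that controls several of these genes, was at 78.7 and 30.7 CPM, 2.56-fold lower and 1.51-fold (1.19 to 1.91) in those cells, and the electron donor Por was 1.87-fold lower, at 214 and 114 CPM.

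Conjugating and antioxidant enzymes were lower in part. In the glutathione and antioxidant list 5 of 28 genes were at least 2-fold lower (17.9%, against 4.91% of all genes) and 0 were higher (against 3.00%). The median log2 ratio was -0.44. The 5 genes were all glutathione transferases: Gstm1 at 2137 and 439.5 CPM, 4.86-fold lower, Gstm2 and Gstm3 10.7-fold and 13.4-fold lower at levels of 60.3 and 52.8 CPM in the HFD cells, and Gstm6 and Gstt2. The Gstm genes are near-identical copies, and reads may be shared among them. Gstm2 and Gstm3 were 3.84-fold and 5.83-fold lower among cells that did not lean pericentral. In these HFD cells both stood at 19.2 CPM, below the 32.1 and 33.1 CPM of HFD lymphocyte barcodes, and the source was not tested. Of the 28 genes, 24 were higher in pericentral-leaning than in the other HFD cells. The share of all genes in that direction was not counted, so 24 of 28 describes the list only. Catalase, Cat, was at 5805 and 4569 CPM and Mgst1 at 5673 and 3640.3 CPM, 1.27-fold and 1.56-fold lower. The list of sulfotransferases, glucuronosyltransferases and esterases had 5 of 24 lower (20.8%, against 4.91% of all genes), 0 higher (against 3.00%) and a median of -0.47. The carboxylesterase Ces2a was at 217 and 40.9 CPM, 5.30-fold lower, and Ugt2b35 was 2.94-fold lower. Ugt2b36 was level (664 and 624 CPM), and Ces1c was 1.65-fold higher (504 and 832 CPM).

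Genes of fatty acid oxidation and PPAR alpha were lower for 10 of 34 (29.4%, against 4.91% of all genes) and higher for 0 (against 3.00%). The median log2 ratio was -0.64, and 28 of the 34 had a ratio below 1, against 1491 of all 2729 genes. Most of the 10 were omega-hydroxylases or peroxisomal enzymes: beside the Cyp4a12 pair, Cyp4a10 stood at 2015 and 209 CPM, 9.63-fold lower (9.15 to 10.1), and Cyp4a14 at 5345 and 839 CPM, 6.37-fold lower (6.20 to 6.55). Ehhadh, of peroxisomal beta-oxidation, was at 478 and 108 CPM, 4.41-fold lower, and the thiolase Acaa1b 3.86-fold lower. The pantetheinase gene Vnn1, Eci2 and Acaa1a were also among the 10. Cpt1a, the carnitine gate of mitochondrial oxidation, was at 248 and 295 CPM, 1.19-fold higher (1.10 to 1.29). Ppara itself was 1.77-fold lower (1.49 to 2.09), at 73.1 and 41.4 CPM.

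The Cyp4a and peroxisomal genes were lower among cells that did not lean pericentral as well. There Cyp4a14 stood at 4764 and 833 CPM, 5.72-fold lower, against 1937 CPM in HFD lymphocyte barcodes, and Ehhadh was 3.85-fold lower, while Eci2 and Acaa1a were under 2-fold at 1.75 and 1.85. Of the 34 genes, 8 were at least 2-fold lower in that comparison (against 117 of all 2729 genes) and 0 were higher (against 66 of 2729). The median log2 ratio was -0.42, against -0.02 for all genes. In the control library Cyp4a14 was at 1458 and Ehhadh at 56.8 CPM.

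Cholesterol synthesis was lower as a whole. All 18 listed genes at 50 CPM had a ratio below 1, against 1491 of all 2729 genes. Of the 18, 11 (61.1%, against 4.91% of all genes) were at least 2-fold lower in CCl4 hepatocytes, and the median log2 ratio was -1.26. Hmgcs1, an early enzyme of the pathway, was at 517 CPM (493 to 543) and 192 CPM (183 to 201), 2.70-fold lower (2.52 to 2.89). Sqle, which opens the sterol branch, was at 135 and 35.8 CPM, 3.76-fold lower (3.24 to 4.36), and Nsdhl, a later demethylation step, 3.73-fold lower. Sc5d was 1.71-fold lower, and Ebp lay within counting error, 1.12-fold lower (0.996 to 1.25). In pericentral-leaning HFD cells 4 of the 18 were higher than in the other HFD cells, where 17 of the 18 pericentral landmarks, which made the split, were. The share of all genes in that direction was not counted. Among cells that did not lean pericentral 13 of 18 were at least 2-fold lower (against 117 of all 2729 genes), with a median log2 ratio of -1.39. In the 10 pericentral-leaning CCl4 cells the list median was 0.33 over 36161 UMIs. Genes without a UMI there, Fdps among them, were set to 3 counts, so this median gives no sure direction. In the control library Sqle stood at 334 CPM and Hmgcs1 at 2532 CPM.

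Genes of this pathway share sterol regulatory elements, bound by SREBP factors. The letters TCACNCCAC, searched on both strands, occurred in the window of 1.44% of 27025 genes and of 1 of 10 cholesterol synthesis genes with a window, Hmgcs1. They also occurred in 2 of 24 fatty acid oxidation genes, Acsl1 and Ehhadh, and in 1 of 23 P450 genes, Cyp2a5. The Hmgcs1 window (chr13:119690101-119690400, GRCm38.p6, plus strand, RefSeq) is shown because it was the cholesterol gene in which the letters were found, with the match, 137 bases before the start, in capitals. A direct repeat of nuclear receptor hexamers spaced by 1 base, as bound by PPAR alpha, was found in 0.451% of all genes and in 0 of 24 fatty acid oxidation genes with a window, which says only that these letters are not in this short stretch.
Hmgcs1: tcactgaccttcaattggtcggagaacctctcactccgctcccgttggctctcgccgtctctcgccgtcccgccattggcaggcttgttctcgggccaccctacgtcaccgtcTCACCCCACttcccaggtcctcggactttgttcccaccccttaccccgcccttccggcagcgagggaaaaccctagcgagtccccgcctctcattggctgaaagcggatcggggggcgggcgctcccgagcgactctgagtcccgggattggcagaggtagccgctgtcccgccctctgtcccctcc

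Fatty acid and triglyceride synthesis was lower for 7 of 21 genes (33.3%, against 4.91% of all genes) and higher for 1 (4.76%, against 3.00%). The median log2 ratio was -0.51. That median turned to 0.12 in droplets under 3% mitochondrial UMIs. Scd1, the delta-9 desaturase, had one of the largest differences by level, 20895 CPM (20737 to 21054) in HFD and 5499 CPM (5451 to 5548) in CCl4 cells, 3.80-fold lower (3.76 to 3.84); its control level was 3280.3 CPM. Acss2 and Acacb were 3.43-fold and 3.86-fold lower, and Me1 and Fasn, which supply NADPH and build palmitate, 2.70-fold and 2.02-fold lower. Gpam and Thrsp were the other genes past 2-fold. Srebf1, the regulator of the pathway, was at 228 and 237 CPM, a ratio of 1.04 (0.954 to 1.13), and Elovl5 at 616 and 638 CPM, and the exception on the higher side was Lpin1. Insig2, an anchor of SREBP in the endoplasmic reticulum, was 1.93-fold higher and its relative Insig1 1.76-fold lower.

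**Figure D5:**
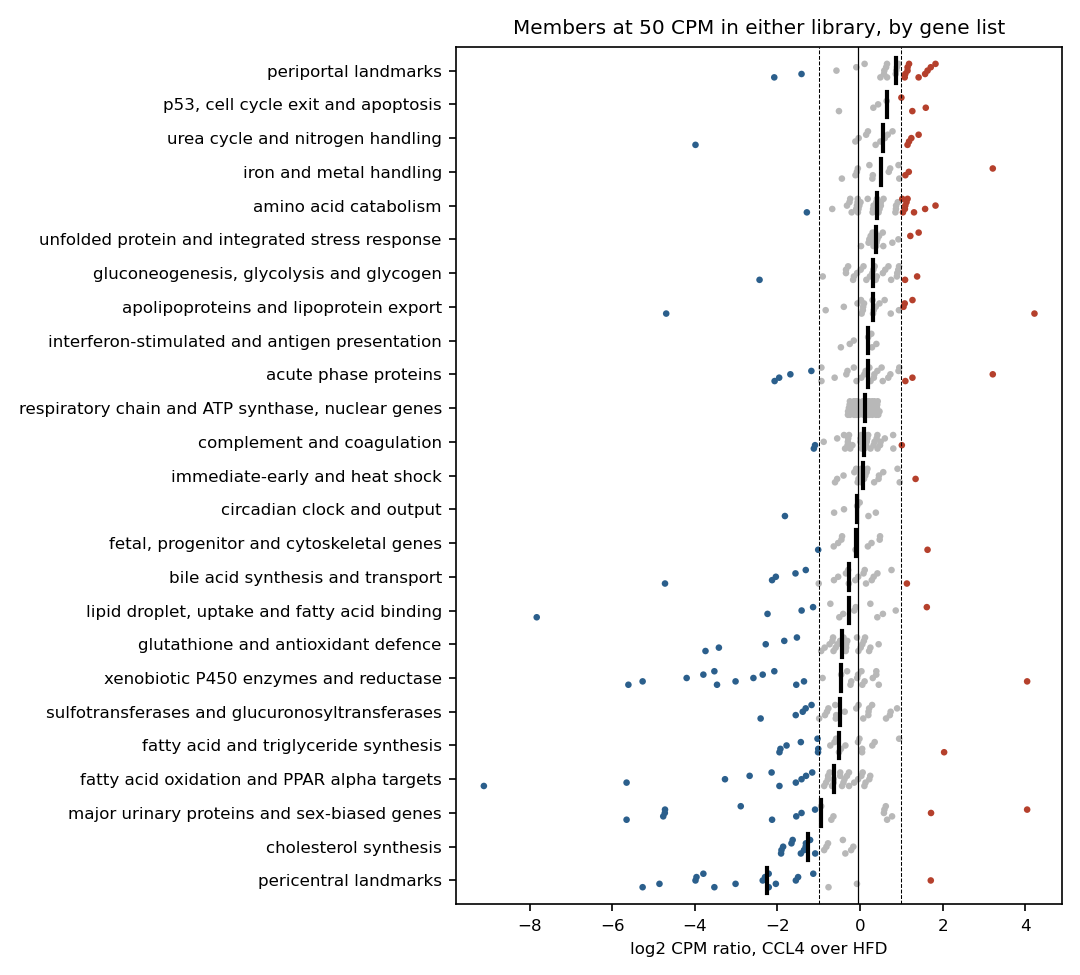
Log2 CPM ratio of CCl4 over HFD hepatocytes (x axis) for each member at 50 CPM in either library of 25 gene lists (y axis), 1 point a gene, red where at least 2-fold higher and blue where at least 2-fold lower; black bars are list medians, the thin line is the median of all genes, -0.04, and dashed lines mark 2-fold. Pericentral landmarks (median -2.25) and cholesterol synthesis (-1.26) lie lowest and periportal landmarks (0.88) highest.

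Lipid droplet and fatty acid binding genes split, with 4 of 14 lower (28.6%, against 4.91% of all genes) and 1 higher (7.14%, against 3.00%). The median log2 ratio was -0.27. Fabp1, the liver fatty acid binding protein, stood at 30509.9 and 13889 CPM, 2.20-fold lower, but lymphocyte barcodes held 32763 and 18860.3 CPM, above the hepatocytes of either library. Fabp5, a binding protein of epithelia and macrophages, had 1897 UMIs in HFD and 23 in CCl4 hepatocytes, 589.7 and 2.60 CPM, 227-fold lower (151 to 359). Fabp5 too was higher in lymphocyte barcodes, at 807 and 34.0 CPM. G0s2, an inhibitor of the main triglyceride lipase, was 3.07-fold higher, at 196 and 601 CPM, against 295 and 882 CPM in lymphocyte barcodes. Plin2, the common lipid droplet coat, was nearly level at 426 and 387 CPM, and so was the fatty acid transporter Cd36 at 172 and 159.9 CPM, a ratio within counting error. Dbi was 1.64-fold and Fitm1, which helps to form lipid droplets, 4.72-fold lower. In the cells that did not lean pericentral Fitm1 was 1.84-fold (1.32 to 2.53) and Fabp1 1.92-fold lower, both under 2-fold. Fitm1 stood at 172 CPM in pericentral-leaning HFD cells against 26.5 CPM in the others and 62.2 CPM in HFD lymphocyte barcodes.

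Apolipoproteins and their partners had 4 of 21 genes higher, 1 lower and a median log2 ratio of 0.32. With Apoa4, the genes past 2-fold were Apoc3, an inhibitor of lipoprotein clearance, at 3958 and 8388 CPM (2.12-fold), and the lipase inhibitors Angptl4 and Angptl8 (2.08-fold and 2.41-fold). Pltp, which transfers phospholipids between particles, was at 67.2 and 2.60 CPM, 25.8-fold lower (16.8 to 41.6), from 216 and 23 UMIs. The most abundant members differed little, Apoa2 at 22874 and 21947 CPM and Apoe at 12432 and 15477 CPM.

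Bile acid genes had 5 of 21 lower (23.8%, against 4.91% of all genes) and 1 higher (4.76%, against 3.00%). The median log2 ratio was -0.27. The uptake transporter Slco1a1 stood at 292 and 11.1 CPM, 26.4-fold lower (21.4 to 32.8), while Slco1b2 and the main bile salt importer Slc10a1 were 1.44-fold and 1.55-fold lower. Cyp7b1 and Cyp27a1 of the alternative pathway were 4.37-fold and 4.10-fold lower, and the sterol exporters Abcg5 and Abcg8 2.95-fold and 2.48-fold. Cyp7a1, the rate-limiting enzyme of the classical pathway, was at 109 and 90.8 CPM, 1.21-fold lower (1.06 to 1.37), and Cyp8b1 1.70-fold higher. The direction of Cyp7a1 turned among cells that did not lean pericentral, at 52.1 and 89.9 CPM, 1.73-fold higher (1.42 to 2.12), as did that of Slco1b2, and the list median was then -0.02. Slco1a4 was the member past 2-fold on the higher side, at 27.7 and 60.8 CPM, and 1.93-fold higher in those cells.

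Several of the genes farthest apart carry a sex bias in mouse liver that growth hormone sets. In the list of major urinary proteins and sex-biased genes 9 of 19 were lower (47.4%, against 4.91% of all genes), 2 were higher (against 3.00%) and the median log2 ratio was -0.94. Beside Serpina1e and C6, the male-biased Cyp4a12a, Slco1a1, Mup11, Mup17, Selenbp2, Cyp7b1 and Cyp2d9 were lower, by 2.91-fold for Cyp2d9 to 50.2-fold for Cyp4a12a, whereas Cyp2b9 was higher. All mice were male. Mup11 was at 282 and 10.4 CPM and its control level at 1608 CPM, but other urinary proteins went differently: Mup20 was at 14294 and 9160.1 CPM, Mup3 at 9473 and 16229.6 CPM (6134 and 15488 CPM in lymphocyte barcodes) and Mup21 3.30-fold higher. The Mup genes are near-identical copies, most of which stayed under 50 CPM, so single members are uncertain. Slco1a1 and Cyp4a12a were 24.3-fold and 41.2-fold lower among cells that did not lean pericentral, and Mup11 11.4-fold.

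Glucose metabolism had 2 of 27 genes higher (7.41%, against 3.00% of all genes) and 1 lower (3.70%, against 4.91%), near the background. The median log2 ratio was 0.33. G6pc, glucose-6-phosphatase and the last step of glucose release, stood at 527 CPM (502 to 553) and 1376 CPM (1351 to 1400), 2.61-fold higher (2.48 to 2.75), and kept 2.51-fold among cells that did not lean pericentral. Pck1, the entry step, was 1.86-fold higher at 1568 and 2913 CPM, and the glycogen-targeting subunit Ppp1r3b 2.13-fold. Igfbp2, which binds insulin-like growth factors, was at 763 and 141 CPM, 5.39-fold lower (5.04 to 5.78).

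Iron and metal genes had 3 of 14 higher (21.4%, against 3.00% of all genes), 0 lower (against 4.91%) and a median log2 ratio of 0.50. Beside Hamp2 these were the metallothionein Mt1, at 184 and 394 CPM with 6938 CPM in the control library, and the transferrin receptor Tfrc, 2.27-fold higher. Both were under 2-fold, at 1.70 and 1.82, among cells that did not lean pericentral. Transferrin, Trf, was 1.24-fold higher and ferritin heavy chain, Fth1, level at 5744 and 5452 CPM. Acute phase proteins split, with 3 of 28 higher (10.7%, against 3.00% of all genes), 4 lower (14.3%, against 4.91%) and a median of 0.18. The serum amyloids Saa1 and Saa2 stood at 516 and 271 CPM in HFD and 161 and 64.6 CPM in CCl4 cells, 3.22-fold and 4.19-fold lower, with control levels of 11281 and 11558 CPM. Lymphocyte barcodes held 453 and 269 CPM in the HFD library and 153 and 94.2 CPM in the CCl4 library, close to or above the hepatocytes. Among cells that did not lean pericentral both genes were 2.60-fold lower. Fga and Fgb of fibrinogen were 1.23-fold and 1.26-fold lower. Complement and coagulation genes held close, with 1 of 37 higher (2.70%) and 2 lower (5.41%), near the 3.00% and 4.91% of all genes. Their median was 0.09. C8b and C6 of the membrane attack complex were 2.17-fold and 2.12-fold lower. C1s1 was 2.02-fold higher (under 2-fold among cells that did not lean pericentral), and C3 and Plg lay within 1.13-fold.

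Stress genes leaned higher in CCl4 cells. In the unfolded protein and integrated stress list all 20 genes at 50 CPM had a ratio above 1, against 1238 of all 2729 genes. The median log2 ratio was 0.38. Past 2-fold were 2 of the 20 (10.0%, against 3.00% of all genes). Herpud1, of endoplasmic reticulum-associated degradation, stood at 482 and 1290.0 CPM, 2.68-fold higher (2.54 to 2.82), and Atf5 at 83.9 and 195 CPM, 2.33-fold. The chaperones Hspa5 and Hsp90b1 were 1.72-fold and 1.34-fold higher. Lymphocyte barcodes held 277 and 677 CPM of Herpud1. Among cells that did not lean pericentral the list median was 0.19, and Herpud1 was 2.33-fold higher. Of the 20 genes, 0 were higher in pericentral-leaning than in the other HFD cells, a direction not counted over all genes. In the p53 and cell cycle list 3 of 7 were higher (42.9%, against 3.00% of all genes) and 0 lower (against 4.91%), with a median of 0.65. Higher were Trp53inp1 at 88.6 and 267 CPM (3.02-fold) and the stress cytokine Gdf15 at 91.7 and 221 CPM (2.41-fold). The cyclin Ccnd1 was at 50.4 and 101 CPM (2.00-fold, and 1.50-fold among cells that did not lean pericentral). The other 24 listed genes, Cdkn1a, Mki67 and Top2a among them, were under 50 CPM. Btg2 and Gadd45g were 1.57-fold and 1.25-fold higher.

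Immediate-early and heat shock genes, which dissociation can raise, had 1 of 22 higher (4.55%, against 3.00% of all genes), Klf10 (48.2 and 123 CPM). None was lower (0 of 22, against 4.91%), and the median log2 ratio was 0.07. Dusp1 was 1.95-fold higher (290.1 and 565 CPM, with 494 and 571 CPM in lymphocyte barcodes), while Hsp90ab1 was 1.09-fold higher. Interferon and antigen presentation genes had 0 of 7 past 2-fold, against 3.00% higher and 4.91% lower of all genes, and a median of 0.20. H2-K1 was at 2091 and 1762 CPM, B2m at 1720.1 and 1973 CPM and Bst2 1.38-fold lower. Of 7 clock genes at 50 CPM, 1 was at least 2-fold lower (14.3%, against 4.91% of all genes) and 0 higher (against 3.00%). This was Dbp, an output that peaks late in the day, at 104 and 29.4 CPM, 3.52-fold lower (2.99 to 4.16). Tef was 1.54-fold lower. The list median was -0.07, and Bhlhe40 and Rora differed by 1.15-fold and 1.05-fold. The times at which the mice were killed are not given in the sources used here.

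Fetal, progenitor and cytoskeletal genes had 1 of 11 higher and 1 lower (9.09% each, against 3.00% and 4.91% of all genes). The median log2 ratio was -0.11. Sox9, of the ductal plate and of hepatocytes that take on ductal traits, was at 26.1 and 81.1 CPM, 3.11-fold higher (2.48 to 3.94), and 159 CPM in the control library; Krt19 was at 0 by the rule. Tmsb4x, abundant in leukocytes, was 2.02-fold lower at 246 and 122 CPM, with 9164 and 8070.4 CPM in lymphocyte barcodes, and Actb and Actg1 were 1.14-fold and 1.21-fold higher. Nuclear genes of the respiratory chain had 0 of 67 past 2-fold, against 3.00% higher and 4.91% lower of all genes. They were the most even list, with log2 ratios from -0.29 to 0.47 and a median of 0.12. Ndufa4 stood at 2555 and 2963 CPM, Atp5g3 at 1090.0 and 1189 CPM, Cox8a was 1.33-fold higher and Ndufa1 1.39-fold. Among ribosomal protein genes 72 of 76 had a ratio below 1 (against 1491 of all 2729 genes), with 0 past 2-fold and a median log2 ratio of -0.50.

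The neurotrophin Bdnf, the gene of the study's main interest, had 36 UMIs in HFD and 42 in CCl4 hepatocytes, 11.2 CPM (7.84 to 15.5) and 4.75 CPM (3.42 to 6.42), 2.36-fold lower (1.47 to 3.77) in the CCl4 cells. The control library, given for reference only, held Bdnf at 2.53 CPM (1.65 to 3.71), below both. A Bdnf UMI was seen in 4.19% and 1.75% of the HFD and CCl4 hepatocytes and in 0.880% and 0.243% of their lymphocyte barcodes. In pericentral-leaning HFD cells its level was 3.90 CPM and in the other HFD cells 14.6 CPM, and among cells that did not lean pericentral the CCl4 cells were 3.07-fold lower (1.87 to 4.97). Tlr4, the endotoxin receptor, had 0 UMIs in the hepatocytes of both libraries, which allows up to 3 counts in each. None of the 13 genes of this list reached 50 CPM. Rest and Ly96 were at 26.7 and 13.1 CPM in HFD and 31.0 and 17.0 CPM in CCl4 cells, both within counting error. The Bdnf receptor gene Ntrk2 had 3 and 105 UMIs, 0.933 and 11.9 CPM, a ratio of 12.7 (4.24 to 62.7); it was named after its value was seen.

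Of the genes past 2-fold, 11 higher and 15 lower ones had a level in lymphocyte barcodes at or above that in hepatocytes, in the library where they were higher. The source of this RNA was not tested. The largest of these on the lower side were Fabp5, the immunoglobulin light chain Igkc, Ang and Fdps. Igkc stood at 235 and 33.7 CPM in hepatocytes and 33386 and 6546 CPM in lymphocyte barcodes. On the higher side were Wfdc2 (9.64 and 55.4 CPM), Serpina12 (41.7 and 184 CPM), the T cell kinase gene Zap70 (14.6 and 69.1 CPM, with 39.4 and 89.1 CPM in lymphocyte barcodes) and Sds.

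Markers of other cell types are given for the members of both libraries. The cell rule itself set Cd3e, Cd79a, Ptprb, Col3a1 and Krt19 of these lists to 0, so low sums are in part fixed by the choice. The 8 B and plasma cell markers summed to 282 CPM in HFD and 58.1 CPM in CCl4 hepatocytes, mostly Igkc, against 38521 and 8749 CPM in lymphocyte barcodes. The 8 T cell markers summed to 8.39 and 7.69 CPM and the 6 NK cell markers to 9.02 and 5.20 CPM. The 10 monocyte and macrophage markers gave 45.7 and 6.22 CPM and the 8 neutrophil markers 103 and 13.2 CPM, with Clec4f and Ly6g at 0 in the CCl4 cells. The 8 endothelial markers gave 11.8 and 11.3 CPM, the 8 stellate and fibroblast markers 3.42 and 1.81 CPM, the 4 platelet markers 3.11 and 1.36 CPM, the 4 mesothelial markers 0.622 and 0.113 CPM and the 6 erythroid markers 305 and 284 CPM. The 8 cholangiocyte markers, led by Sox9 and Spp1, gave 98.5 and 179 CPM, with Krt19 and Cftr at 0. Their part in the differences above was not tested beyond leaving out every cell with a UMI in any marker of T, B, NK, monocyte, neutrophil, endothelial, stellate and cholangiocyte lists, Igkc apart, after which 402 HFD and 1442 CCl4 cells gave 89 higher and 141 lower genes.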

How the data were processed

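Single-cell RNA of mouse liver was measured by droplet 3′ sequencing in 3 libraries, 1 per condition, each a pool of 2 mice. The files the authors deposited hold whole-number UMI counts, not normalized, for each gene in each called cell, made with Cell Ranger 7.2.0 per the file headers. The submitters' processing notes name Cell Ranger, Seurat and GRCm39, whereas the study's methods name mm10; of the 55357 gene identifiers, 52081 occur in GENCODE M21 on GRCm38, and 3276 do not. Gene coordinates and promoters are given on GRCm38 only. No column of another sample was present.

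Members and gene lists were chosen with earlier results of these data known. Raw UMIs of the hepatocytes were summed per library and scaled to CPM (Python 3.11.15, numpy 2.4.6, scipy 1.17.1, pandas 2.3.3, matplotlib 3.10.9). Genes with 50 CPM in either library were compared, and called means a ratio of at least 2 or at most 0.5. Levels have exact Poisson intervals, ratios exact conditional intervals and shares of cells Clopper-Pearson intervals. The median log2 is over the members of a list at 50 CPM. With 1 library a side no test was made, and the depth behind each gene is its UMI count. The scripts were tested on simulated data.

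Of the genes named, 14 at each end were ranked by the interval bound nearest 1 among genes held by hepatocytes, 4 at each end among the others, and in each of 26 lists the 2 most abundant and the 2 farthest apart, without mitochondrial and ribosomal protein genes; Bdnf, Tlr4 and the 3 cell rule genes were added. Other list members were named for their role after their values were seen. Held meant at least 2 times the CPM of lymphocyte barcodes with under 20 UMIs in Alb, Apob and Cps1, but 0 barcodes of either library met that limit, so lymphocyte barcodes were taken without it (at least 2 UMIs in Cd3d, Cd3e, Cd3g, Cd79a and Cd79b together) and held was set to at least their CPM. All list symbols were found in the files, older names being matched to the files' own. Lists overlap, and a gene of several lists is counted in each. Doublets were not called; an alternative left out the 8% of cells with most UMIs. Alternatives numbered 20, and 1 more was chosen after seeing the data. Near-identical copies (Mup, Cyp2c, Cyp4a12, Gstm, Saa, Hamp) and overlapping or antisense genes can exchange reads. The control library was measured the same way for reference.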

Additional observations from a re-analysis of the deposited data

How the results depend on the processing

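The numbers of genes past 2-fold, 82 higher and 134 lower, moved by over 1.5 times under 3 of 21 alternatives. Cells with 8% to 30% mitochondrial UMIs gave 161 and 218, a minimum of 20 CPM in place of 50 gave 128 and 223 among 5198 genes, and the pericentral-leaning cells, of which the CCl4 library had 10, gave 906 and 356. In those 10 cells the direction turned for Glul (ratio 2.38), Oat (2.85), Slc1a2 (2.28), Cyp2e1 (1.08), Nsdhl (1.34), Sqle (1.05), Gstm3 (1.33), Gstm2 (1.12), Fitm1 (1.60) and Gls2 (0.916). The cholesterol synthesis median became 0.33. Cdh1 and Fdps had no UMI in those cells, and their ratios of 21.3 and 1.23 stand for a count set to 3. They show no turn, and the median includes Fdps. Of 5887 Gls2 UMIs in CCl4 hepatocytes, 5886 lay outside those cells. The fatty acid and triglyceride synthesis median became 0.12 in droplets under 3% mitochondrial UMIs. The cause was not tested. Of the 42 counts under these alternatives, 36 stayed within 1.5 times. Some alternatives could hardly move them: at least 10 marker UMIs kept the same 835 and 2399 cells, and a mitochondrial limit of 20% kept 830 and 2387. The 42 also include the droplets under 3% mitochondrial UMIs, which are no separate check. Among 3022 values of named genes and lists, 2234 stayed within the counting interval of a gene or within 0.25 of a list median. Another 774 moved and 14 turned, Cdh1 and Fdps counted with them. Scaling outside mitochondrial and the 20 most abundant genes gave 98 and 122, and a scale from the median of ratios 90 and 126. Hepatocytes above the 95th percentile of the lymphocyte barcodes' marker share, the alternative chosen after seeing the data, gave 67 and 112. Of these, 62 and 96 were among the 82 and 134. That cut kept 21 of the 279 pericentral-leaning HFD cells and 0 of the 10 CCl4 ones. It thus largely repeated the zone split and is no separate check on free RNA. No paired analysis was possible because each condition had 1 library. Depth limited genes under 50 CPM, such as Bdnf with 36 and 42 UMIs.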

Other observations

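Cdkn1a, the cell cycle inhibitor induced by p53, stayed under the minimum of 50 CPM. It had 14 UMIs in HFD and 254 in CCl4 hepatocytes, 4.35 CPM (2.38 to 7.30) and 28.7 CPM (25.3 to 32.5), 6.60-fold higher (3.86 to 12.2), and 12.1 CPM in the control library. In lymphocyte barcodes Cdkn1a was at 25.4 and 37.8 CPM, above the hepatocytes of either library. Mki67, a mark of cycling cells, had 1 and 12 UMIs in hepatocytes and Top2a 7 and 17, so that proliferation genes were near the limit of detection in both. Both genes were chosen after their values were seen.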
